A study of Homo sapiens with 9 samples.

Results

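Antisense long non-coding RNA (lncRNA) genes are named after the protein-coding or other gene that they run opposite to, as in PCBP1-AS1 for PCBP1. The loci described here are those whose assigned gene symbol ends in -AS and a number, other than EPB41L4A-AS1 and OIP5-AS1, and whose mean level over the 4 libraries was at least 0.5 FPKM (fragments per kilobase of transcript, scaled to library size). Of 733 such symbols at 729 loci, 380 loci were in the gene table, 203 of these lay under 0.5 FPKM, and 177 were kept, out of 13937 loci of any kind past the same threshold and 22266 in the table. The 177 loci carried 182 antisense symbols and 1021 antisense isoforms. Nearest inside the threshold were FGF13-AS1 (0.5002 FPKM), KDM5B-AS1 (0.509) and MAFG-AS1 (0.510), and nearest outside it MID1IP1-AS1 (0.491), ZEB2-AS1 (0.481) and GLYCTK-AS1 (0.466). The 349 loci outside the table held little: 125 had any isoform signal, and none had a mean of at least 100 estimated reads with 80% of them under the antisense symbol.

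RNA was sequenced from the b-39 subline of HEK293 Flp-In T-Rex. This embryonic kidney line was built to take a transgene at 1 genomic site, and the subline expresses a beta-globin reporter called PTC39 from it. Cytoplasm was released with digitonin and poly(A)+ RNA was taken from it. One library came from cells co-depleted of UPF1 and XRN1, one from cells co-depleted of SMG6 and XRN1, one from cells depleted of XRN1, and one from control cells given an EGFP siRNA. The reporter is carried by all 4, the controls included. The series has 9 samples, and its 4 libraries of RNA 5' ends and 1 CAGE library, the last from cells with an empty site, were not analysed here.

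Nonsense-mediated decay (NMD) removes RNAs on which a ribosome stops far upstream of an exon junction. UPF1 is its central helicase, SMG6 its endonuclease, and XRN1 the main cytoplasmic exonuclease that removes RNA from the 5' end. LncRNAs that reach the cytoplasm often hold short open reading frames near their 5' end, and can meet this pathway when they are translated.

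Each condition had 1 library, so none of the differences below was replicated and no p-value was computed. The libraries held 35983475 (UPF1/XRN1), 34649855 (SMG6/XRN1), 32970743 (XRN1) and 31476528 (control) estimated reads, and 1 read was worth 3.72 to 4.25 units of the deposited isoform signal. The kidney line's markers VIM, KRT8, KRT18, NEFL, LIN28B and CDH2 were present at 6.96 FPKM or more in every library, NEFM lay at 0.266 to 0.804 FPKM, and of 6 measured markers of other cell types only INS passed 1 FPKM. Levels of the targeted mRNAs did not single out the depleted libraries: XRN1 stood at 6.50 FPKM in the library labelled UPF1/XRN1, 10.1 in SMG6/XRN1, 7.31 in XRN1 and 7.80 in the control. SMG6 stood at 5.97 FPKM in UPF1/XRN1, 7.66 in the library labelled SMG6/XRN1, 5.55 in XRN1 and 4.77 in the control. UPF1 stood at 8.59 FPKM in the library labelled UPF1/XRN1, 11.4 in SMG6/XRN1, 11.6 in XRN1 and 6.71 in the control, below the other depleted libraries but above the control. Directions below therefore rest on the labels.

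At 154 of the 177 loci, at least 80% of the reads fell under an antisense symbol, and these are called own loci. At the other 23, most or many reads belonged to another gene that the authors' assembly had joined to the antisense RNA. At HNRNPU-AS1, for example, 0.0019% of the reads were antisense, and the others were assigned to HNRNPU. Of the 10 loci with the highest mean, only C17orf76-AS1, MAPKAPK5-AS1 and FGD5-AS1 were own loci. The others were HNRNPU-AS1, LNX1-AS1/LNX1-AS2, THAP9-AS1, MMP24-AS1, CDKN2B-AS1, EAF1-AS1 and NDUFA6-AS1, of which THAP9-AS1 alone passed 2-fold in any comparison. No source used here says if the authors counted by strand. For genes that overlap, antisense and sense reads therefore cannot be told apart.

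Most antisense RNAs were scarce in the cytoplasm. The own loci had a median of 1.51 FPKM, against 6.75 FPKM over all loci past the threshold, 88 of the 154 lay under 2 FPKM and 13 reached 10 FPKM. C17orf76-AS1 alone made up 65.5% of their summed mean FPKM. It is the RNA now called SNHG29, a host of small nucleolar RNAs (snoRNAs), the guides that direct chemical modification of ribosomal RNA. In 78 of the own loci every library had fewer than 100 estimated reads, and none of the 177 loci was listed at 0 in any library.

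The co-depletions were compared with the control first, which sets the combined loss of an NMD factor and XRN1 against untreated decay. C17orf76-AS1, PCBP1-AS1, TP73-AS1, ZBED3-AS1, ZNRD1-AS1 and TPT1-AS1 were at least 2-fold higher in both co-depletions, and no antisense locus was 2-fold lower in either. A difference is called here at 2-fold on log2 FPKM with 1 FPKM added, a scale that damps low genes. A locus under 1 FPKM in the library it is compared with cannot be called lower on this scale, even at 0 FPKM. UPF1/XRN1 had 13 of the 177 antisense loci at least 2-fold higher (7.34%), against 9.36% of all 13937 loci, and none lower, against 0.524%. SMG6/XRN1 had 11 higher (6.21%), against 8.42% of all loci, and none lower, against 0.251%. Both shares for the antisense loci lay near and below the background, and their median log2 changes on this scale were also lower: 0.09 in UPF1/XRN1 against 0.14 for all loci, and 0.19 in SMG6/XRN1 against 0.24. On isoform signal summed over each locus, with the worth of 1 read added, the medians were 0.24 against 0.27 in UPF1/XRN1 and 0.416 against 0.405 in SMG6/XRN1. By FPKM, the antisense shares lay above those of all loci from 2 to 5 FPKM and from 10 FPKM up, and below them in the other ranges of level. Both co-depletions were 2-fold higher at 8 of the 177 loci (4.52%), against 6.78% of all loci. After centring on the median of all loci, the split was 10 higher and 1 lower in UPF1/XRN1 and 7 higher and 1 lower in SMG6/XRN1. No centred share of all loci is given beside these counts. These are bulk samples, so a change in the number of cells that hold an RNA and a change in RNA per cell cannot be told apart.

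**Figure D1:**
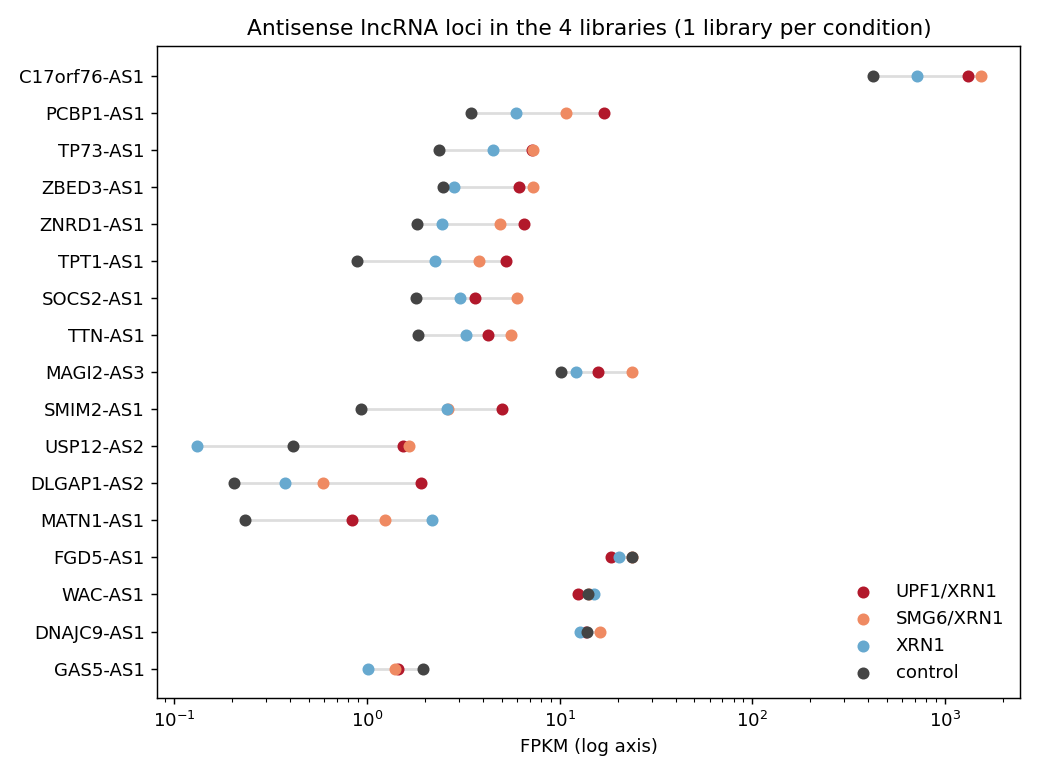
FPKM of 17 antisense lncRNA loci on a log axis, with 1 point for each library (UPF1/XRN1, SMG6/XRN1, XRN1 and control) and a grey line over their range. In the top 6 loci the control point is the lowest and both co-depletions lie to the right of XRN1, while the points of FGD5-AS1, WAC-AS1 and DNAJC9-AS1 lie close together.

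C17orf76-AS1 (transcribed from chromosome 17, plus strand in GENCODE 29) stood at 1324.6 FPKM in UPF1/XRN1 and 1544 in SMG6/XRN1, against 713 in XRN1 and 423 in the control. The log2 change over the control was 1.65 in UPF1/XRN1 and 1.87 in SMG6/XRN1. Its estimated reads, scaled by the authors' spike-in normalisation as in all read ratios here, were 3.52 times the control in UPF1/XRN1 (95% interval 3.44 to 3.60) and 4.10 times in SMG6/XRN1 (4.01 to 4.20). Both co-depletions lay above XRN1, and XRN1 above the control. Intervals on reads cover counting error only.

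PCBP1-AS1, named for the gene of a poly(C)-binding protein, was higher in both co-depletions. It stood at 16.99 FPKM in UPF1/XRN1 and 10.9 in SMG6/XRN1, against 5.97 in XRN1 and 3.48 in the control. The log2 change over the control was 2.01 in UPF1/XRN1 and 1.40 in SMG6/XRN1, on 904, 595 and 164 reads in UPF1/XRN1, SMG6/XRN1 and the control. TPT1-AS1, opposite the gene of the abundant tumour protein TPT1, stood at 5.30 FPKM in UPF1/XRN1, 3.83 in SMG6/XRN1, 2.25 in XRN1 and 0.883 in the control. Its reads were 5.22 times the control in UPF1/XRN1 (3.94 to 7.04) and 3.96 times in SMG6/XRN1 (2.94 to 5.39). In both genes the 4 libraries stood in the same order, with UPF1/XRN1 highest and the control lowest.

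ZNRD1-AS1, opposite the gene of an RNA polymerase I subunit, stood at 6.54 FPKM in UPF1/XRN1, 4.93 in SMG6/XRN1, 2.45 in XRN1 and 1.82 in the control, log2 changes over the control of 1.42 in UPF1/XRN1 and 1.07 in SMG6/XRN1. By reads XRN1 was 1.02 times the control (0.836 to 1.26), and both co-depletions lay above these 2 libraries. TP73-AS1, opposite the gene of the p53 relative p73, stood at 7.19 FPKM in UPF1/XRN1, 7.29 in SMG6/XRN1, 4.50 in XRN1 and 2.37 in the control. Its log2 changes over the control were 1.28 in UPF1/XRN1 and 1.30 in SMG6/XRN1. ZBED3-AS1, which starts beside the zinc finger gene ZBED3, stood at 6.18 FPKM in UPF1/XRN1, 7.25 in SMG6/XRN1, 2.83 in XRN1 and 2.47 in the control. The reads of ZBED3-AS1 were 2.64 times the control in UPF1/XRN1 (2.13 to 3.29) and 3.02 times in SMG6/XRN1 (2.43 to 3.76). In these 3 loci too, both co-depletions lay above XRN1 and the control.

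The remaining own loci passed 2-fold in 1 co-depletion only, which does not show that the co-depletions differ. In UPF1/XRN1 they were SMIM2-AS1, DLGAP1-AS2, RSBN1L-AS1, TRAF3IP2-AS1 and NOP14-AS1. SMIM2-AS1 stood at 5.04 FPKM in UPF1/XRN1, 2.65 in SMG6/XRN1, 2.60 in XRN1 and 0.932 in the control (log2 1.64 for UPF1/XRN1 over the control). Its reads numbered 95 in UPF1/XRN1 and 17 in the control. DLGAP1-AS2, inside the gene of a postsynaptic scaffold protein, stood at 1.90 FPKM in UPF1/XRN1, 0.590 in SMG6/XRN1, 0.376 in XRN1 and 0.203 in the control. UPF1/XRN1 stood apart from the other 3 libraries at this locus, with 128 reads against 39 in SMG6/XRN1, 22 in XRN1 and 16 in the control. The mean FPKM of those 3 alone lay under 0.5, so DLGAP1-AS2 passed the threshold only through UPF1/XRN1. RSBN1L-AS1, TRAF3IP2-AS1 and NOP14-AS1 had log2 changes over the control of 1.18, 1.09 and 1.03 in UPF1/XRN1 and of 0.97, 0.92 and 0.94 in SMG6/XRN1, just under the threshold.

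In SMG6/XRN1 alone, SOCS2-AS1, TTN-AS1 and MAGI2-AS3 passed. SOCS2-AS1, opposite the gene of a suppressor of cytokine signalling, stood at 3.64 FPKM in UPF1/XRN1, 5.99 in SMG6/XRN1, 3.02 in XRN1 and 1.79 in the control. Its reads were 4.15 times the control in SMG6/XRN1 (3.21 to 5.42) and 2.53 times in UPF1/XRN1 (1.93 to 3.34). TTN-AS1, opposite the muscle gene titin, stood at 4.24 FPKM in UPF1/XRN1, 5.56 in SMG6/XRN1, 3.28 in XRN1 and 1.84 in the control. Of the reads of that locus 85.9% were antisense. MAGI2-AS3, beside the gene of a membrane scaffold, stood at 15.8 FPKM in UPF1/XRN1, 23.8 in SMG6/XRN1, 12.1 in XRN1 and 10.2 in the control. Its reads did not pass 2-fold: they were 1.74 times the control in SMG6/XRN1 (1.60 to 1.88). SMG6/XRN1 was the highest library at all 3 loci. Of the 14 own loci that passed in either co-depletion, 1 had a control level under 0.5 FPKM, DLGAP1-AS2.

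At the mixed loci THAP9-AS1 and ZNF582-AS1 the antisense RNA and a second gene could not be separated. THAP9-AS1 (37.0% of reads antisense, the rest SEC31A) had log2 changes over the control of 1.36 in UPF1/XRN1 and 1.14 in SMG6/XRN1, and reads 1.99 times the control in UPF1/XRN1 and 1.87 times in SMG6/XRN1. ZNF582-AS1 (40.0% antisense, the rest the zinc finger gene ZNF583) had log2 changes of 2.10 in UPF1/XRN1 and 1.799 in SMG6/XRN1, with reads 2.69 times the control in UPF1/XRN1 and 2.84 times in SMG6/XRN1.

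On the summed isoform signal, with the worth of 1 read added, low loci are damped less and the counts were larger. UPF1/XRN1 then had 30 of 177 antisense loci 2-fold higher over the control and 4 lower, against 17.6% and 1.74% of all loci. SMG6/XRN1 had 34 higher and none lower, against 18.8% and 0.596%. Of the 154 own loci, 28 (18.2%) were higher in UPF1/XRN1 and 30 (19.5%) in SMG6/XRN1, shares near those of all loci. Of the 50 antisense loci between 0.5 and 1 FPKM, 14.0% were 2-fold higher in SMG6/XRN1, against 31.4% of all loci in that range, and in UPF1/XRN1 5 of the 50, against 26.3%. Of the 43 between 1 and 2 FPKM, 20.9% were higher in SMG6/XRN1, against 26.9% of all loci there. From 10 FPKM up, 4 of 23 antisense loci (17.4%) were higher in SMG6/XRN1, against 10.7% of all loci. In UPF1/XRN1 5 of the 23 (21.7%) were higher, against 11.5%. Only 13 of these 23 were own loci, and at the others many reads belonged to another gene.

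**Figure D2:**
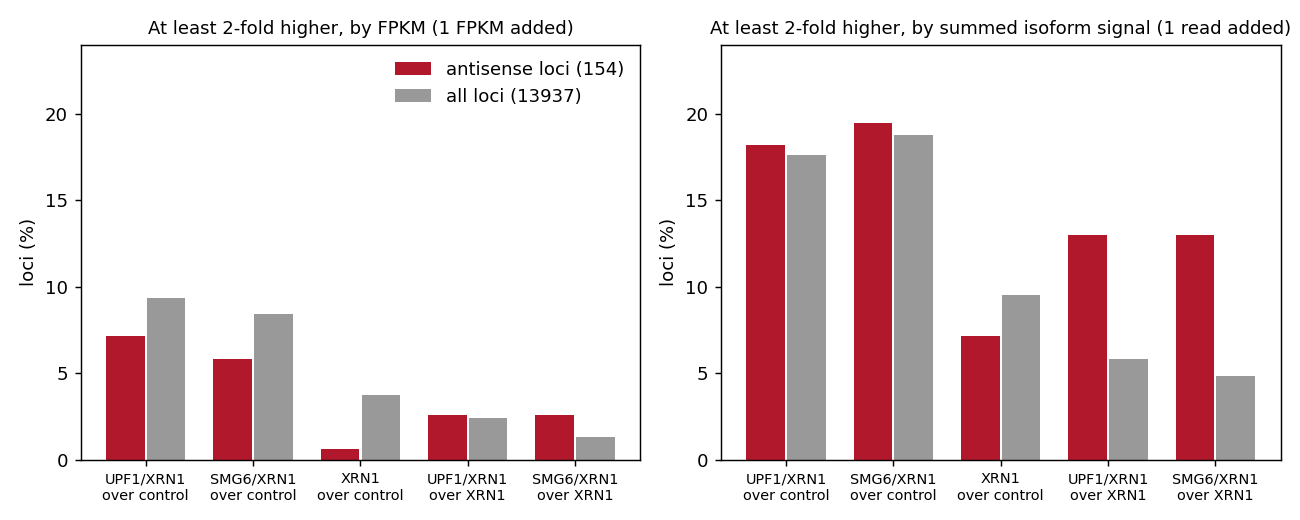
Percentage of loci at least 2-fold higher in each of the 5 comparisons, for the 154 own antisense loci and for all 13937 loci, by FPKM with 1 FPKM added (left) and by summed isoform signal with 1 read added (right). On the left the antisense bars over the control are the shorter ones, and on the right those of the co-depletions over XRN1 reach 13.0% against 5.83% and 4.85% of all loci.

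Next, each co-depletion was compared with XRN1 alone, which sets the second depletion against the first. These comparisons share the XRN1 library. In SMG6/XRN1, 4 of 177 antisense loci were at least 2-fold higher, against 1.31% of all loci, and 1 lower, against 0.187%. In UPF1/XRN1, 4 were higher, against 2.4% of all loci, and none lower, against 0.502%. Median log2 changes were 0.18 for SMG6/XRN1 over XRN1, against 0.11 for all loci, and 0.03 for UPF1/XRN1 over XRN1, against 0.02. After centring on the median of all loci, SMG6/XRN1 had 1 higher and 1 lower, so its count rests on loci close to the threshold. The centred share of all loci is not given here either.

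C17orf76-AS1 was 2-fold higher in SMG6/XRN1 than in XRN1 (log2 1.11, reads 2.32 times, 2.28 to 2.36), and under 2-fold in UPF1/XRN1 (0.89, reads 1.99 times, 1.96 to 2.03). ZBED3-AS1 passed in SMG6/XRN1 by FPKM (1.11) but not by reads (1.64 times, 1.37 to 1.96). PCBP1-AS1 and ZNRD1-AS1 passed in UPF1/XRN1 (1.37 and 1.13), with reads 2.93 times (2.56 to 3.37) and 2.61 times (2.21 to 3.09) those of XRN1. In SMG6/XRN1 the changes were 0.77 for PCBP1-AS1 and 0.78 for ZNRD1-AS1. DLGAP1-AS2, which was kept only through its level in UPF1/XRN1, also passed 2-fold in UPF1/XRN1 over XRN1 (1.07).

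USP12-AS2, named for a deubiquitinase gene, was the 1 antisense locus past 2-fold over XRN1 in both co-depletions (0.565%, against 0.818% of all loci). It stood at 1.54 FPKM in UPF1/XRN1, 1.65 in SMG6/XRN1, 0.130 in XRN1 and 0.414 in the control, on 27, 24, 2 and 6 reads. XRN1 and the control lay under 0.5 FPKM, so the locus passed the threshold only through the co-depletions in which it was higher. XRN1 was the lowest library, and with 2 reads there the ratio of UPF1/XRN1 to XRN1 (12.4 times) had an interval of 3.12 to 108. OCIAD1-AS1 (1.03 in SMG6/XRN1 over XRN1) rested on 22 reads in SMG6/XRN1 and 9 in XRN1. CIRBP-AS1, opposite the gene of a cold-inducible RNA-binding protein, was the locus 2-fold lower in SMG6/XRN1 (log2 -1.12), on 6 reads against 15 in XRN1. Its read ratio was 0.420 with an interval of 0.134 to 1.15, so the difference was not detectable at this depth.

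By summed signal, 20 antisense loci were 2-fold higher than XRN1 in UPF1/XRN1 and 3 lower, against 5.83% and 1.92% of all loci. In SMG6/XRN1, 20 were higher and 1 lower, against 4.85% and 0.416%. All 20 in each were own loci (13.0% of 154). The shares were closer at low levels: between 0.5 and 1 FPKM, 18.0% of antisense loci were higher in SMG6/XRN1, against 15.3% of all loci there, and between 1 and 2 FPKM 9.30%, against 8.34%. Between 2 and 5 FPKM the shares were 11.8% of 34 antisense loci in SMG6/XRN1, against 4.30% of all loci.

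XRN1 was then compared with the control, to see the exonuclease alone. Of the 177 antisense loci 2 were at least 2-fold higher, against 3.72% of all loci, and 1 was lower, against 0.352%. The median log2 change was 0.05, against 0.13 for all loci. The higher loci were MATN1-AS1 and the mixed locus ZNF582-AS1 (1.29, reads 1.65 times the control). MATN1-AS1, opposite the gene of the cartilage protein matrilin 1, stood at 0.840 FPKM in UPF1/XRN1, 1.24 in SMG6/XRN1, 2.17 in XRN1 and 0.232 in the control. The control had 9 reads and XRN1 70, a ratio of 8.17 (4.07 to 18.6), and all 3 depleted libraries lay above the control.

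RBM12B-AS2, opposite the gene of an RNA-binding protein, was the locus that was lower. It stood at 3.54 FPKM in UPF1/XRN1, 4.72 in SMG6/XRN1, 2.01 in XRN1 and 5.65 in the control, a log2 change of -1.15 for XRN1 over the control (reads 0.362 times, 0.246 to 0.523). Only XRN1 lay 2-fold under the control. UBAC2-AS1 and SMARCA5-AS1, chosen after their values were seen, also had their lowest reads in XRN1. UBAC2-AS1 had 140 reads in UPF1/XRN1, 121 in SMG6/XRN1, 41 in XRN1 and 111 in the control, so by reads XRN1 alone lay under the control. By FPKM its log2 changes over the control were -0.75 in XRN1 and -0.07 in each co-depletion. SMARCA5-AS1 had 41 reads in UPF1/XRN1, 52 in SMG6/XRN1, 33 in XRN1 and 74 in the control, so all 3 depleted libraries lay under the control. By summed signal 13 antisense loci were 2-fold higher in XRN1 and 7 lower, against 9.51% and 1.33% of all loci.

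The isoforms of C17orf76-AS1 did not move alike. The authors marked an isoform as NMD where, tested on the table, its signal in both co-depletions was above 0 and over 2 times the control, so the mark restates these values and is not separate evidence. ENST00000487066 carried the mark, with a signal of 59920 in UPF1/XRN1, 75326 in SMG6/XRN1, 19346 in XRN1 and 7290 in the control. ENST00000580180 did not, with 32793 in UPF1/XRN1, 35216 in SMG6/XRN1, 29251 in XRN1 and 21392 in the control. The marked isoform made up 44.1% of the locus' signal in UPF1/XRN1 and 47.6% in SMG6/XRN1, against 28.4% in XRN1 and 18.9% in the control. The unmarked one made up 24.2% in UPF1/XRN1 and 22.3% in SMG6/XRN1, against 42.9% in XRN1 and 55.5% in the control. Another, ENST00000481027, stood at 22340 in UPF1/XRN1, 23988 in SMG6/XRN1, 11016 in XRN1 and 4673 in the control. The order of the leading isoforms was thus turned round between the control and the co-depletions.

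**Figure D3:**
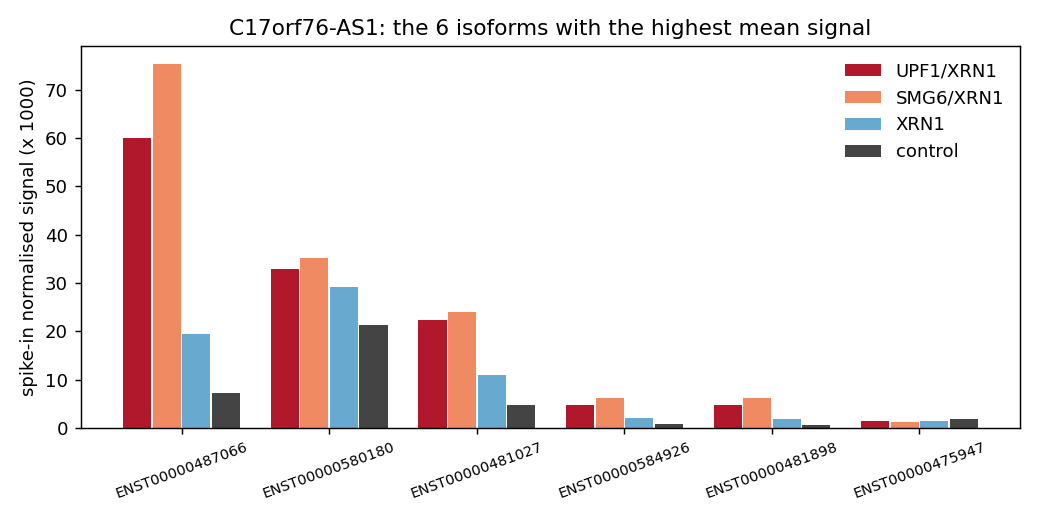
Spike-in normalised signal, in units of 1000, of the 6 C17orf76-AS1 isoforms with the highest mean, with 1 bar for each library. ENST00000487066 is the tallest in both co-depletions and ENST00000580180 in XRN1 and the control.

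The first open reading frames of these isoforms are shown because NMD depends on where translation stops. They were read from the GENCODE 29 transcripts (GRCh38) as the first ATG and the first stop codon in its frame, with up to 12 bases on either side, the start and stop codons in capitals. Every transcript shown here is a later version of the one named in the files, apart from FGD5-AS1 and DNAJC9-AS1, so its 5' end may differ from the authors' model.
C17orf76-AS1, ENST00000487066, marked: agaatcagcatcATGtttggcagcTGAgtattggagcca
C17orf76-AS1, ENST00000580180, not marked: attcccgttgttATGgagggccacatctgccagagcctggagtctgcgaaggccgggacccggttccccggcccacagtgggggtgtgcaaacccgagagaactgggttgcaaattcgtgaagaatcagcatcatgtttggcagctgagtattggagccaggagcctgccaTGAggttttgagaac
The marked isoform's frame has 4 codons before the stop and 2 exon junctions after it, the last 84 bases on. The unmarked isoform's frame has 53 codons and 2 junctions after it, the last 58 bases on. The 39 bases printed for the marked isoform also lie in the unmarked one, where their ATG is at position 192 of the transcript, within the longer frame that starts at position 71 and in another reading frame. Both isoforms therefore hold a junction more than 50 bases after the first stop, the usual rule of thumb for an NMD substrate.

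The first frames of other risers were as follows. In each, the isoform is the one with the highest mean signal of those that match the annotation.
PCBP1-AS1, ENST00000416395: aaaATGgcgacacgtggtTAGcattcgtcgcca
ZNRD1-AS1, ENST00000422224: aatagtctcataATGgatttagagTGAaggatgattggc
ZBED3-AS1, ENST00000512001: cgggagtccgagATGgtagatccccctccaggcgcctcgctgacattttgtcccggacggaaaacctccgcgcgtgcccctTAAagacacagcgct
These lie on chromosome 2 (minus strand), 6 (minus) and 5 (plus) in that order. The frames have 5 codons in PCBP1-AS1, 4 in ZNRD1-AS1 and 23 in ZBED3-AS1. All 3 isoforms carry the mark, and the last junction lies 496 bases after the stop in PCBP1-AS1, 474 in ZNRD1-AS1 and 588 in ZBED3-AS1. In the PCBP1-AS1 and ZNRD1-AS1 isoforms the signal of both co-depletions lay above XRN1. The ZBED3-AS1 isoform stood at 203 in UPF1/XRN1, 307 in SMG6/XRN1, 241 in XRN1 and 76.9 in the control. Its UPF1/XRN1 signal was thus under that of XRN1. TP73-AS1 ENST00000423764 has 57 codons and its last junction 1923 bases after the stop. Its signal was 1673 in UPF1/XRN1, 1330.0 in SMG6/XRN1, 715 in XRN1 and 237 in the control.

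The own loci with the highest means that passed 2-fold in none of the 5 comparisons were MAPKAPK5-AS1, FGD5-AS1, DNAJC9-AS1 and WAC-AS1, shown for contrast. MAPKAPK5-AS1 stood at 39.8 FPKM in UPF1/XRN1, 36.7 in SMG6/XRN1, 30.5 in XRN1 and 21.1 in the control, under 2-fold with the control lowest. FGD5-AS1 stood at 18.4 FPKM in UPF1/XRN1, 23.9 in SMG6/XRN1, 20.3 in XRN1 and 23.9 in the control. WAC-AS1 stood at 12.5 FPKM in UPF1/XRN1, 14.2 in SMG6/XRN1, 15.1 in XRN1 and 14.1 in the control. In FGD5-AS1 and WAC-AS1 no co-depletion lay above the control by as much as 0.01 on the log2 scale. The first frames of DNAJC9-AS1 and WAC-AS1 were as follows.
DNAJC9-AS1, ENST00000513954: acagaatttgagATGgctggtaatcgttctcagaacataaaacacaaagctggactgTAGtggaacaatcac
WAC-AS1, ENST00000527986: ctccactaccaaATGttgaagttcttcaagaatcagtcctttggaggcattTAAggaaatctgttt
Both lie on chromosome 10, DNAJC9-AS1 on the plus and WAC-AS1 on the minus strand. Their first frames are also short, 15 and 13 codons, but no junction follows the stop in either. FGD5-AS1 ENST00000424349 has a frame of 60 codons and 1 junction, 123 bases after the stop, and MAPKAPK5-AS1 ENST00000428207 a frame of 93 codons and 1 junction 1260 bases after it. A junction after the first stop was therefore also present in loci that did not pass 2-fold.

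Of the 1021 antisense isoforms, 407 passed the filter on low signal (a mean of at least 30.9). Among these 35.9% were at least 2-fold higher in UPF1/XRN1 than in the control, against 35.5% of all isoforms past the filter, and 34.6% in SMG6/XRN1, against 35.2%. Over XRN1 the shares were 28.3% in UPF1/XRN1, against 27.1%, and 28.0% in SMG6/XRN1, against 25.1%. XRN1 over the control had 23.6%, against 24.3%. Isoforms at least 2-fold lower than the control were 31 of the 407 in UPF1/XRN1 (7.62%), against 10.3% of all isoforms, and 23 in SMG6/XRN1 (5.65%), against 8.52%. Of the 407 antisense isoforms 118 carried the mark, against 27.9% of all. By these counts the antisense isoforms lay near the background throughout.

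Within the antisense isoforms, the mark went with the number of exons. The 291 that passed, matched an annotated transcript and were found in GENCODE 29 came from 132 loci. The mark was on 75 of 187 isoforms with 3 or more exons (40.1%, exact Clopper-Pearson 95% interval 33.0 to 47.5), 8 of 97 with 2 exons (8.25%, 3.63 to 15.6) and 0 of 7 with 1 exon (up to 41.0%). Over all such isoforms the shares were 25.5% with 3 or more exons, 18.6% with 2 and 13.3% with 1. The intervals treat isoforms as independent, although isoforms of 1 locus share reads. With only the highest isoform of each locus in each class, the shares were 23 of 78 (29.5%), 5 of 71 (7.04%) and 0 of 7. Without C17orf76-AS1 the share with 3 or more exons was 66 of 171 (38.6%).

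The filter and the annotation bear on that pattern. With no filter beyond a signal above 0, the mark was on 31.5% of 397 isoforms with 3 or more exons and 8.72% of 172 with 2. Only 127 of the 291 transcripts had the same version in GENCODE 29 as in the files. Among those the shares were 7 of 39 with 3 or more exons (17.9%, 7.54 to 33.5) and 5 of 82 with 2 (6.10%, 2.01 to 13.7), and these intervals overlap. Among isoforms with 3 or more exons, 69 of 163 with a junction more than 50 bases after the first stop were marked (42.3%), against 6 of 23 without one (26.1%). Among isoforms with 2 exons the counts were 3 of 53 with such a junction and 5 of 44 without.

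**Figure D4:**
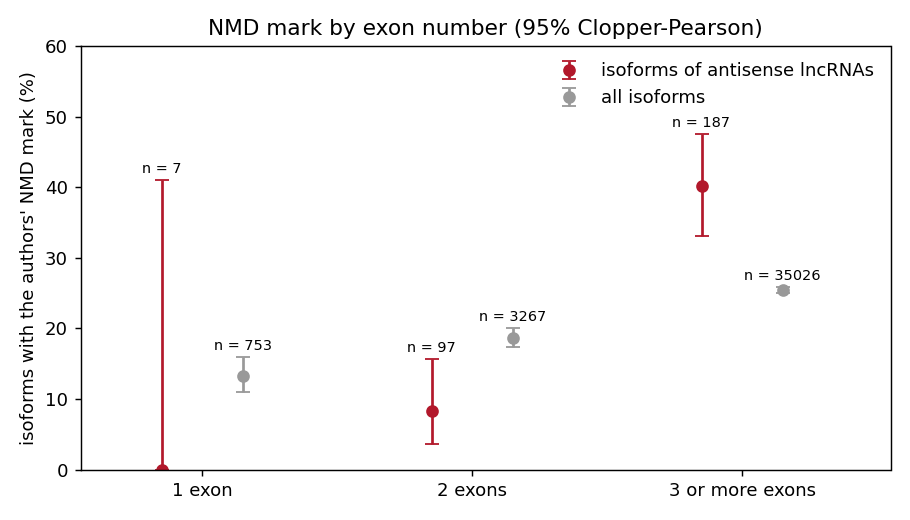
Percentage of isoforms with the authors' NMD mark by number of exons, for isoforms of antisense lncRNAs and for all isoforms, with exact 95% intervals and n above each. Antisense isoforms with 3 or more exons stand at 40.1% and those with 2 exons at 8.25%, against 25.5% and 18.6% of all isoforms.

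The same held for whole loci, grouped by the exons of their highest annotated isoform. That isoform had to pass no filter on signal. In FEZF1-AS1, SNRK-AS1, LMLN-AS1 and EFCAB14-AS1 its mean signal was 0.0, and in RAMP2-AS1 (0.5) and HM13-AS1 (1.3), among others, under the worth of 1 read. These named loci were all placed in the class with 3 or more exons by a transcript with almost no signal. Reads were at least 2-fold higher in UPF1/XRN1 than in the control in 22 of 80 own loci with 3 or more exons, 5 of 64 with 2 and 0 of 6 with 1. In SMG6/XRN1 the counts were 23 of 80, 5 of 64 and 0 of 6. Among all loci the shares stood in the same order for 3 or more exons and 2: 17.5% and 13.0% in UPF1/XRN1, and 18.6% and 14.7% in SMG6/XRN1. Median read ratios of the antisense loci over the control were 1.34 in UPF1/XRN1 and 1.45 in SMG6/XRN1 with 3 or more exons, against 0.965 and 1.19 with 2. Over all loci they were 1.23 in UPF1/XRN1 and 1.345 in SMG6/XRN1 with 3 or more exons, against 1.09 and 1.22 with 2. Over XRN1 the medians of the antisense loci were close: 1.12 in UPF1/XRN1 and 1.26 in SMG6/XRN1 with 3 or more exons, against 1.08 and 1.28 with 2. The counts 2-fold above XRN1 were less alike. In UPF1/XRN1 they were 15 of 80 with 3 or more exons and 4 of 64 with 2, and in SMG6/XRN1 13 of 80 and 6 of 64. Among all loci the order was the reverse: 4.57% and 7.46% in UPF1/XRN1, and 3.40% and 6.415% in SMG6/XRN1. The antisense classes had similar levels, with median means of 1.51 and 1.65 FPKM. None of these differences between classes has a replicate behind it.

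The antisense RNAs of the HOX clusters, the gene arrays that set body position in embryos, formed 8 own loci. None passed 2-fold by FPKM with 1 added in any of the 5 comparisons, with log2 changes between -0.70 and 0.99. By reads, 1 of the 8 was 2-fold higher in XRN1 than in the control, and 1 in each co-depletion over XRN1. For all loci the shares by summed signal were 9.51% in XRN1 over the control. Over XRN1 they were 5.83% in UPF1/XRN1 and 4.85% in SMG6/XRN1. The HOXB-AS1/HOXB-AS2/HOXB-AS3 locus stood at 12.5 FPKM in UPF1/XRN1, 13.5 in SMG6/XRN1, 15.9 in XRN1 and 10.9 in the control. HOXD-AS1 stood at 5.33 FPKM in UPF1/XRN1, 7.84 in SMG6/XRN1, 6.07 in XRN1 and 5.90 in the control. HOXC-AS5 stood at 2.40 FPKM in UPF1/XRN1, 1.95 in SMG6/XRN1, 0.711 in XRN1 and 1.28 in the control, and its reads in UPF1/XRN1 were 2.02 times the control (1.49 to 2.78). By reads HOXA-AS4 also passed 2-fold in UPF1/XRN1, with 102 reads against 39 in the control (2.52 times, 1.73 to 3.75). HOXB-AS4 lay under the control there on 5 reads against 10 (0.483 times, 0.129 to 1.55), an interval that holds 1. The libraries stood in a different order at HOXB-AS1/HOXB-AS2/HOXB-AS3, HOXD-AS1 and HOXC-AS5.

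The sense gene named in the symbol was measured at 158 of the 177 loci, 141 of them own loci. The antisense RNA lay below its sense gene in 104 of the 141 pairs by mean FPKM, which is scaled by length. Its median was 1.45 FPKM, against 9.45 FPKM for the sense genes, and the median pair had antisense at 26.6% of the sense level. Of the 11 antisense loci 2-fold higher in UPF1/XRN1 than in the control, 2 had a sense gene also 2-fold higher and none a sense gene 2-fold lower. Of the 9 in SMG6/XRN1, 1 had a sense gene 2-fold higher and none a lower one. Over all 141 pairs, 9 sense genes were 2-fold higher than the control in UPF1/XRN1 and 10 in SMG6/XRN1. None of the 141 was 2-fold lower in either, so the lack of lower sense genes is not particular to these loci. Spearman's rho between the log2 changes of antisense and sense ran from 0.14 to 0.29 over the 5 comparisons, as a description over 141 pairs that share the same libraries.

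PCBP1 stood at 89.0 FPKM in UPF1/XRN1, 109.7 in SMG6/XRN1, 96.9 in XRN1 and 114 in the control, under 2-fold from the control in each, where PCBP1-AS1 was higher by 2.01 on the log2 scale in UPF1/XRN1. TPT1, one of the most abundant mRNAs, had log2 changes over the control of 0.01 in UPF1/XRN1 and 0.10 in SMG6/XRN1, although TPT1-AS1 starts 25 bases from it in GENCODE 29. TP73 (0.30 in UPF1/XRN1, 0.18 in SMG6/XRN1) and ZNRD1 (0.51 in UPF1/XRN1, 0.64 in SMG6/XRN1) also stayed under 2-fold. The 2 pairs that moved together in UPF1/XRN1 were those of C17orf76-AS1 and ZBED3-AS1. FAM211A, the gene opposite C17orf76-AS1, stood at 67.2 FPKM in UPF1/XRN1, 76.5 in SMG6/XRN1, 37.8 in XRN1 and 26.9 in the control. ZBED3 stood at 5.83 FPKM in UPF1/XRN1, against 2.40 in SMG6/XRN1, 2.26 in XRN1 and 1.96 in the control, so UPF1/XRN1 was the library that stood apart. Both pairs overlap in GENCODE 29, and the part of shared reads in these values was not tested.

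GAS5-AS1 showed the reverse case. GAS5, a snoRNA host, had log2 changes over the control of 2.94 in UPF1/XRN1 and 3.07 in SMG6/XRN1, the largest of any sense gene in the pairs. GAS5-AS1 stood at 1.45 FPKM in UPF1/XRN1, 1.40 in SMG6/XRN1, 1.01 in XRN1 and 1.96 in the control, on 33, 28, 20 and 40 reads. The control was the highest library, and the interval of the read ratio over the control held 1 in UPF1/XRN1 (0.487 to 1.29) and in SMG6/XRN1 (0.459 to 1.28). TMEM161B, CIRBP, DDX11, HM13, PAXBP1 and DNAJC27 were likewise 2-fold higher than the control in both co-depletions. The antisense RNA of each did not pass with 1 FPKM added, a scale that damps low loci. HM13-AS1 (mean 1.39 FPKM) and DDX11-AS1 (0.696) nevertheless rose, with log2 changes of 0.87 and 0.58 in each co-depletion. CIRBP-AS1, PAXBP1-AS1 and DNAJC27-AS1 had changes of 0.143 or less in both. TMEM161B-AS1 and its sense gene, which start 581 bases apart, had log2 changes in UPF1/XRN1 of 0.57 for the antisense RNA and 1.61 for TMEM161B.

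**Figure D5:**
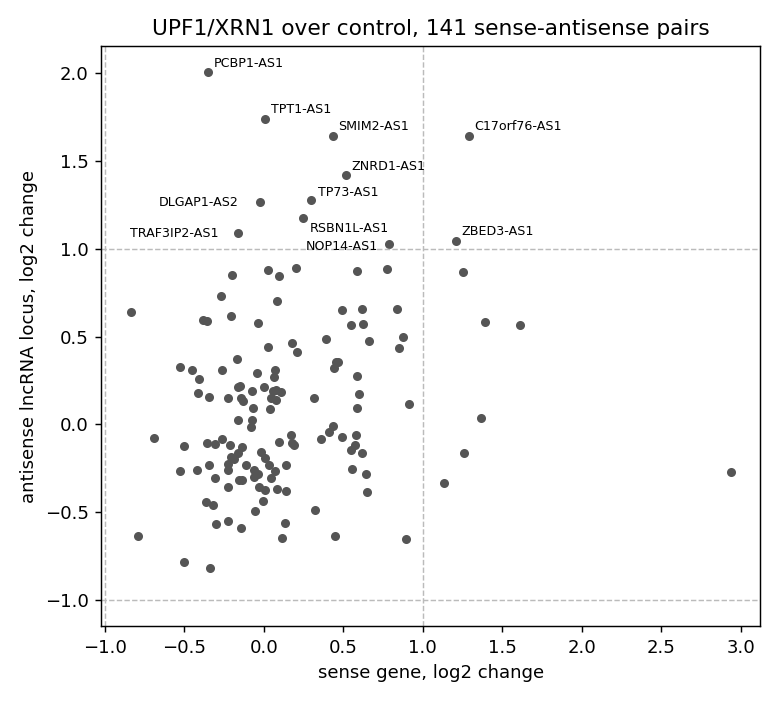
Log2 change of each antisense lncRNA locus (vertical) against that of its sense gene (horizontal) for UPF1/XRN1 over the control, with 1 point for each of 141 pairs and dashed lines at 2-fold. The 11 named loci lie above the upper line, 2 of them, C17orf76-AS1 and ZBED3-AS1, also right of the vertical line, and the point farthest right is the pair of GAS5.

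The arrangement of 142 own-locus pairs could be read from GENCODE 29. In 45 the genes were head-to-head, with 5' ends within 1000 bases, 95 overlapped otherwise, and 2 were apart. Reads in UPF1/XRN1 were 2-fold above the control in 5 of the 45 head-to-head antisense loci and 20 of the 95 overlapping ones, and in SMG6/XRN1 in 5 and 23. Of all loci, 17.9% passed that ratio in UPF1/XRN1 and 19.1% in SMG6/XRN1. The share of overlapping antisense loci lay near that background, and the share of head-to-head loci (5 of 45) lay below it. This difference was not tested. Median read ratios over the control were 0.953 in UPF1/XRN1 and 1.09 in SMG6/XRN1 for head-to-head loci, against 1.25 and 1.35 for overlapping ones. The sense genes of the head-to-head loci had median log2 changes of -0.03 in UPF1/XRN1 and 0.13 in SMG6/XRN1, and those of the overlapping loci 0.06 and 0.18. Of the 45, 32 also overlapped their sense gene.

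Other non-coding and NMD genes were set beside the antisense loci. Of 40 long intergenic (LINC) loci, 5 were 2-fold higher in UPF1/XRN1 than in the control (12.5%), 3 in SMG6/XRN1 (7.50%) and none in XRN1, and none was lower. Their median log2 changes over the control were 0.31 in UPF1/XRN1, 0.51 in SMG6/XRN1 and 0.14 in XRN1. Of 9 measured NMD factors, 4 were 2-fold higher in UPF1/XRN1 than in the control and 3 in SMG6/XRN1, with medians of 0.95 and 0.91. Of 3 measured nuclear-retained RNAs, 2 were higher in each co-depletion, with medians of 2.11 in UPF1/XRN1 and 1.41 in SMG6/XRN1. The medians of the antisense loci over the control, 0.09 in UPF1/XRN1 and 0.19 in SMG6/XRN1, lay below those of these 3 groups. The 1 intronic-transcript (-IT) locus had 0.02 in UPF1/XRN1 and 0.14 in SMG6/XRN1. These groups differ in level and size, and no test was made between them.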

How the data were processed

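Per the submitters' processing notes, which give no roles, CASAVA 1.8.2, Bowtie 0.12.7, TopHat2 2.0.6, Cufflinks 2.0.2 and hg19 were used. The authors deposited FPKM per assembled locus and a spike-in normalised signal per isoform, with reference class codes and an NMD mark. No source used here describes the spike-in, its factor or the strand setting. Loci took their antisense symbol from the deposited identifier file.

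Changes are log2 ratios of FPKM with 1 added, and of isoform signal with 1 added, called at 2-fold. Estimated reads are isoform signal divided by the worth of 1 read. Of low loci, 86.7% to 89.0% came out whole within 0.01, and no count model across loci was fitted. Each read ratio has a 95% interval from the exact conditional binomial test, which treats the rounded estimated reads as counts, so the intervals are approximate and cover counting error only. Symbols and transcripts were matched to GENCODE 29 by identifier, and the files hold no coordinates. Python 3.11.15, pandas 2.3.3 and scipy 1.17.1 were used, and scripts were tested on simulated data. Replicates within a condition were not available here.

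The members and lists were chosen with earlier results of these data known. Named were the 10 loci of highest mean, up to 8 per direction past 2-fold by FPKM and reads, those past 2-fold by FPKM alone, and 3 loci on each side of the threshold. ZBED3-AS1, RSBN1L-AS1, TRAF3IP2-AS1 and NOP14-AS1 in UPF1/XRN1, the loci of the exon, HOX and arrangement comparisons, GAS5-AS1 and the pairs with a higher sense gene were added after their values were seen. The first frame of 1 riser is not reported here.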

Additional observations from a re-analysis of the deposited data

How the results depend on the processing

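Counts of antisense loci depended on how low values are damped, and no value past 2-fold changed direction. Shares of all loci are not given with 0.1 FPKM added, after centring or from a mean of 1 FPKM. Counts under those settings therefore have no background beside them. With 0.1 FPKM added in place of 1, higher and lower loci numbered 26 and 6 in UPF1/XRN1 over the control, 35 and 1 in SMG6/XRN1 over the control, 16 and 6 in XRN1 over the control, 16 and 4 in UPF1/XRN1 over XRN1, and 14 higher in SMG6/XRN1 over XRN1. With isoform signals summed, they numbered 30 and 4 in UPF1/XRN1 over the control, 34 higher in SMG6/XRN1 over the control, 13 and 7 in XRN1 over the control, 20 and 3 in UPF1/XRN1 over XRN1, and 20 higher in SMG6/XRN1 over XRN1. Centred on the median of all loci (0.24, 0.14, 0.13, 0.11 and 0.02 for SMG6/XRN1 and UPF1/XRN1 over the control, XRN1 over the control, and SMG6/XRN1 and UPF1/XRN1 over XRN1), SMG6/XRN1 over the control had 7 higher and 1 lower, UPF1/XRN1 over the control 1 lower, and SMG6/XRN1 over XRN1 1 higher. With a mean of at least 1 FPKM, UPF1/XRN1 over XRN1 had 2 higher. On own loci only, an alternative chosen after the data were seen, XRN1 over the control had 1 higher. Of 76 values of single loci, 6 fell under 2-fold after centring and 5 with summed signals. The 76 include values of the 10 highest loci that were under 2-fold from the start and could not fall. The share of calls lost is therefore larger than these counts over 76. Counts of isoforms stayed within 1.5 times under a filter of 10 reads. No paired analysis was possible because each condition had 1 library.

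With 1 library per condition there was no replicate to leave out. At 78 own loci with under 100 reads in every library, only large differences lay outside the counting intervals.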

Other observations

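EPB41L4A-AS1 and OIP5-AS1, antisense RNAs left out of the loci above by their definition, stood in opposite orders over the libraries. EPB41L4A-AS1, a snoRNA host, stood at 157 FPKM in UPF1/XRN1, 136 in SMG6/XRN1, 44.9 in XRN1 and 16.4 in the control. OIP5-AS1, an abundant RNA known as Cyrano, stood at 10.6 FPKM in UPF1/XRN1, 13.2 in SMG6/XRN1, 16.4 in XRN1 and 18.9 in the control. EPB41L4A-AS1 and C17orf76-AS1, both snoRNA hosts, had the control as their lowest library, while in OIP5-AS1 it was the highest.

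HHIP-AS1, chosen after its values were seen, was low in UPF1/XRN1 alone. It had 5 reads in UPF1/XRN1, 32 in SMG6/XRN1, 24 in XRN1 and 16 in the control, and the read ratio of UPF1/XRN1 to XRN1 was 0.191 (0.0570 to 0.512). At 0.160 FPKM in UPF1/XRN1 and 0.883 in XRN1 its log2 change was -0.70 with 1 FPKM added, so it was not counted among the lower loci above.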
